A study of Mus musculus with 8 samples.

Results

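The nuclei described here are midbrain nuclei that scored high for a set of 6 genes: Calcr, Gda, Egflam, Npsr1, Gpc3 and Nos1. Each gene's level in a nucleus was taken as the log of 1 plus its UMIs (unique molecular identifiers, tags that each mark 1 captured transcript) per 10000, set to a common scale over all nuclei, and averaged over the 6 genes. The top 5% of the nuclei with at least 5000 UMIs were taken as members, which gave 263 of 5264 such nuclei, of 5740 nuclei in all. The 6 genes therefore chose the nuclei, and their values in members are a description. So are all contrasts of members with the other 5001 nuclei, because the score was read from the same counts.

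The series profiled single nuclei of adult mouse midbrain by 10x Chromium (Single Cell 3' v3) after fluorescence-activated sorting, and its labels name the sorted cells as midbrain dopaminergic (mDA) neurons. The PRC2 mutant group and the wild-type (wt) group both carry the strain name DatCreEed and were 8 months old, and each is a pool of 2 female mice and 1 male mouse. DatCre is a Cre recombinase driven by the dopamine transporter gene Slc6a3, and Eed is a core subunit of Polycomb repressive complex 2 (PRC2); the labels give no further allele and no treatment. The 8 samples are lanes of 2 libraries, 4 lanes each, which leaves 1 library per genotype and no replicate. No test was run, and the genotype cannot be told apart from the batch of its library. Mutant and wt below mean the library so labelled, and all intervals are 95% intervals that cover counting error only.

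PRC2 methylates lysine 27 of histone H3 and by this mark keeps developmental genes silent in cells that do not use them. Midbrain dopamine neurons make dopamine with the enzymes Th and Ddc, load it into vesicles with Slc18a2 and take it back up with Slc6a3, and some of them also release glutamate loaded by Slc17a6. Calcr is the calcitonin receptor, which also binds amylin, Npsr1 is the receptor of neuropeptide S, and Nos1 is the neuronal enzyme that makes nitric oxide. Gpc3 is a glypican of the cell surface, Egflam (pikachurin) is a matrix protein known from photoreceptor synapses, and Gda is the enzyme that deaminates guanine.

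Members had a median of 19772 UMIs in the mutant library and 22089 UMIs in the wt library, against 18933 and 23485 UMIs in the other nuclei of those libraries. The 263 members fell into 148 of 3678 mutant nuclei (4.02%, 3.41 to 4.71%) and 115 of 1586 wt nuclei (7.25%, 6.02 to 8.64%). The nuclei under 5000 UMIs that the score did not rank numbered 290 in the mutant and 186 in the wt library. The lowest member scored 1.2715 and the highest nucleus left out 1.2711, and 82 nuclei, 41 of them members, lay within 0.2 of that limit, so the limit cuts through a continuous range of the score. Only 4 cell barcodes occurred in both libraries.

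Summed over nuclei and given as counts per 1e6 UMIs (CPM), all 6 score genes were at 84.7 CPM or more in members of either library and at 18.2 CPM or less in the other nuclei. Calcr, on chromosome 6 (3685680 to 3764714, minus strand, mm10), stood furthest apart. It was at 127 CPM in mutant members against 2.37 CPM in other mutant nuclei, and at 162 CPM in wt members against 1.94 CPM in other wt nuclei. Yet a Calcr tag was present, without thinning, in only 66 of 148 mutant members (44.6%) and 58 of 115 wt members (50.4%). This was the lowest share of the 6 genes in either library, where Gda had a tag in 79.7% and 81.7% of members. Gda, on chromosome 19, was at 95.03 CPM in mutant members against 2.89 CPM in other mutant nuclei, and at 84.7 CPM in wt members against 2.64 CPM in other wt nuclei. Npsr1, on chromosome 9, was the score gene with the highest level in other wt nuclei: it was at 161 CPM in mutant members against 10.1 CPM in other mutant nuclei, and at 248 CPM in wt members against 18.2 CPM in other wt nuclei. For each of the 6 genes the lowest of the 263 members had no tag, and the highest mutant member had 6.10 (Gda) to 14.6 (Npsr1) UMIs per 10000. Tags of at least 4 of the 6 genes were seen in 103 of 148 mutant members (69.6%) and 96 of 115 wt members (83.5%), against 0.765% of other mutant and 1.22% of other wt nuclei. All 6 genes were tagged in 21 mutant and 31 wt members and in none of the other nuclei (0 of 3530 and 0 of 1471).

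**Figure D1:**
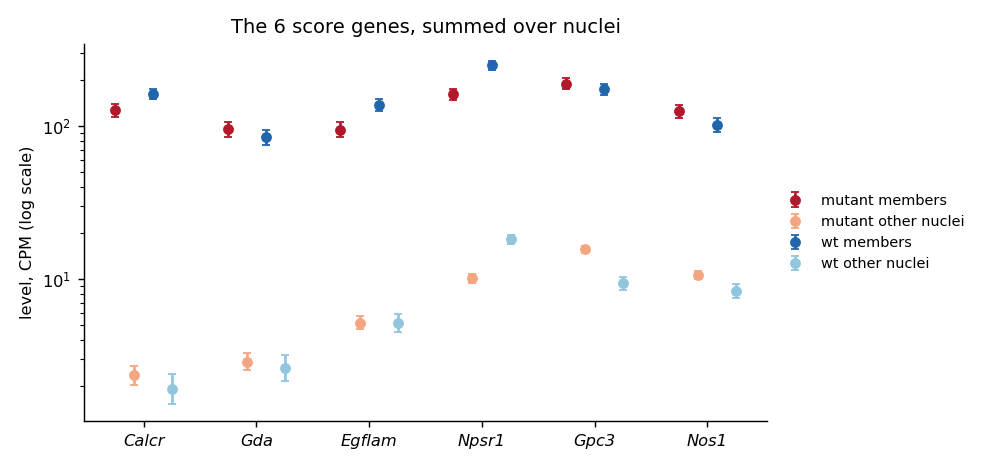
Level of the 6 score genes in CPM (log scale), summed over members and other nuclei of each library, with exact 95% Poisson intervals for counting error. These genes chose the members, so the gap between members (84.7 CPM or more) and other nuclei (18.2 CPM or less) is set by the rule.

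The 6 genes were picked together from these data, so their occurrence in the same nuclei belongs to the choice and is given as a description. Left out of the score in turn, each of the 6 genes was higher in the nuclei that the other 5 chose. Calcr was at 101 CPM in nuclei so chosen against 3.41 CPM in the rest of the mutant library, a fold of 29.7 (25.3 to 34.9). It was at 144 CPM against 5.09 CPM in the wt library, a fold of 28.3 (24.0 to 33.3). The smallest folds were those of Gpc3 in the mutant library (8.22, 7.39 to 9.12) and of Npsr1 in the wt library (7.88, 7.14 to 8.70). Each set chosen by 5 genes shared 87.8% to 92.4% of its nuclei with the members.

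Members also lay near each other when the 6 score genes were kept out. With 30 principal components of 2000 other variable genes, on average 66.2% of the 15 nearest neighbours of a mutant member and 69.7% of those of a wt member were members, against 1.55% for other mutant and 1.98% for other wt nuclei. At least 8 of the 15 neighbours were members for 114 of 148 mutant members (77.0%) and 86 of 115 wt members (74.8%). The remaining 34 mutant and 29 wt members had lower scores (medians 1.55 and 1.62, against 2.23 and 2.65 for those among members) and a higher median depth (22991.5 and 36672 UMIs, against 18938.5 and 21018 UMIs). They also had more of Slc6a3 (87.1 against 28.4 CPM in the mutant, 216 against 109 CPM in the wt library) and of Nrxn3, a presynaptic adhesion molecule (6733 against 1143 CPM and 7743 against 2788 CPM). Tags of both Xist and Y-linked genes, at least 3 UMIs of each, were carried by 1 of these 34 mutant and 10 of these 29 wt members (2.94% and 34.5%), against 1.75% and 11.6% of those with mostly member neighbours.

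Members shared a set of higher genes in both libraries. Of 16916 genes with at least 50 UMIs, score genes aside, 258 (1.53%) were higher in mutant members than in other mutant nuclei by 2-fold or more and 267 (1.58%) were lower by as much, on a log2 scale with 5 CPM added. In the wt library 244 genes (1.44%) were higher and 167 (0.987%) lower. In both libraries 164 genes (0.969% of those tested) were higher, which is 63.6% of the mutant and 67.2% of the wt list, and 117 (0.692%) were lower, which is 43.8% and 70.1%. No gene was called higher in one library and lower in the other. The median log2 ratio over all tested genes was -0.05 in the mutant and -0.03 in the wt library.

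The highest of them included a neuropeptide, receptors of inhibitory and modulatory transmitters and cell adhesion genes. Tac1, the precursor of substance P and neurokinin A, was at 37.0 CPM in mutant members against 1.88 CPM in other mutant nuclei, a fold of 19.7 (15.45 to 25.01). It was at 51.0 CPM in wt members against 1.32 CPM in other wt nuclei, a fold of 38.6 (28.5 to 52.9). Nxph1, a secreted ligand of neurexins, was the most abundant, at 2344 CPM in mutant members against 348 CPM in other mutant nuclei and at 2534 CPM in wt members against 310 CPM in other wt nuclei. It was also the gene that followed the score most closely across nuclei (Pearson r = 0.52 over 3678 mutant and 0.60 over 1586 wt nuclei, a description, since all points of a library share its depth and preparation). Pard3b, Plxdc2 and the noncoding Gm32647 came next by that measure (r = 0.46 to 0.49 in the mutant library). The GABA-A receptor subunit Gabrg1 was at 190 CPM in mutant members against 25.4 CPM in other mutant nuclei and at 221.1 CPM in wt members against 24.2 CPM in other wt nuclei, and the subunit Gabra2 was 4.52-fold higher in the mutant and 5.61-fold higher in the wt library. The cannabinoid receptor gene Cnr1 was 6.35-fold higher (5.46 to 7.35) in mutant and 7.25-fold higher (6.20 to 8.45) in wt members. The adhesion genes Pcdh11x, Edil3 and Igsf11 were 4.56-fold to 6.62-fold higher in the mutant and 5.29-fold to 6.45-fold higher in the wt library. The others of the 20 highest were Sntg2, Zbbx, Zfp831, Ust, Gm48485, Htr2c, Ccdc187, Nek10 and Arpp21, at 4.68-fold or more in the mutant library and 4.63-fold or more in the wt library.

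**Figure D2:**
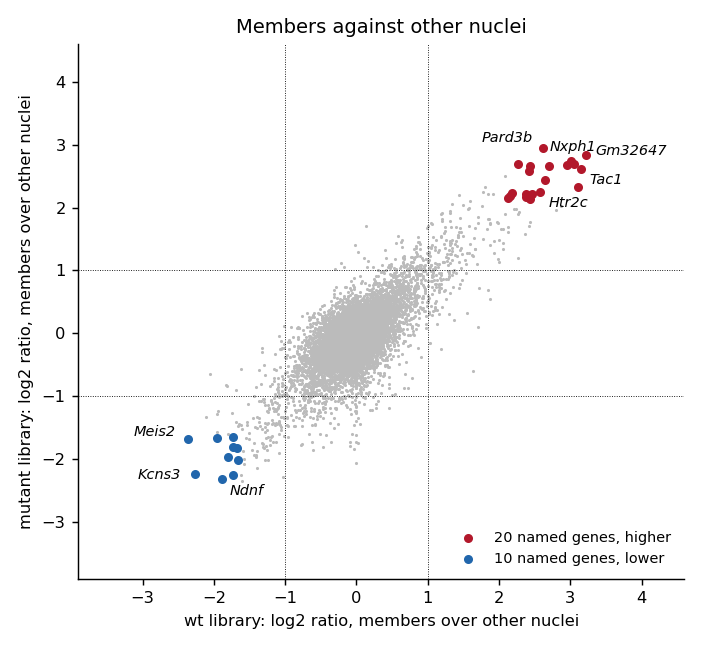
Points are genes with at least 50 UMIs and genes of the lists below that minimum, with the score genes left out. Each is placed by its log2 ratio (5 CPM added) of members over other nuclei in the wt library (horizontal) and the mutant library (vertical). Dotted lines mark 2-fold. The 20 highest named genes (red) and the 10 lowest (blue) lie past the 2-fold lines in both libraries, and no gene lies past them in opposite directions.

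The 10 lowest genes were Kcns3, Ndnf, Adarb2, Drd2, Cpq, Meis2, Ntf3, Sv2c, Adamtsl1 and Sphkap. Ndnf, a secreted factor that marks ventral nigral dopamine neurons, was at 1.17 CPM in mutant members against 25.5 CPM in other mutant nuclei and at 16.7 CPM in wt members against 74.9 CPM in other wt nuclei. Drd2, the dopamine autoreceptor, was at 36.1 CPM in mutant members against 191 CPM in other mutant nuclei and at 81.4 CPM in wt members against 283.3 CPM in other wt nuclei. Kcns3, a modulatory potassium channel subunit, was 5.90 times lower in mutant and 5.59 times lower in wt members.

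Genes that make, store and take up dopamine were lower in members, though not absent. At a 1.5-fold limit for genes of lists with at least 10 UMIs, 8 of 15 genes of this list were lower and none higher in either library. The list also holds the dopamine receptor gene Drd2. Of all genes, 3.1% passed this limit upward and 4.28% downward in the mutant library (3.03% and 2.85% in the wt library). The list's median log2 ratio was -0.61 in the mutant and -0.68 in the wt library. Th, the rate-limiting enzyme, was at 22.7 CPM in mutant members against 62.6 CPM in other mutant nuclei, 2.75 times lower (2.20 to 3.49). It was at 38.3 CPM in wt members against 163 CPM in other wt nuclei, 4.27 times lower (3.61 to 5.07). Slc6a3 was 3.395 times lower (2.902 to 3.997) in mutant and 2.98 times lower (2.74 to 3.25) in wt members, and Ddc and Slc18a2 were 2.14 to 2.36 times lower in both libraries. Thinned to 5000 UMIs each, 11.5% of mutant members had an Slc6a3 tag against 41.8% of other mutant nuclei, and 30.4% of wt members against 64.4% of other wt nuclei. A tag of Th, Slc6a3 or Slc18a2 was present in 41.9% (33.8 to 50.3%) of mutant members and 63.5% (54.0 to 72.3%) of wt members, against 75.7% and 85.7% of the other nuclei. Without thinning those shares were 70.9% and 87.0% of members, against 87.9% and 91.8% of other nuclei.

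Among regulators of mDA identity, 9 of 14 were lower in mutant and 8 of 14 in wt members, and none was higher (median log2 ratios -0.80 and -0.76). En1, a homeobox gene needed for the survival of these neurons, was at 6.41 CPM in mutant members against 25.3 CPM in other mutant nuclei and at 20.5 CPM in wt members against 68.9 CPM in other wt nuclei. Lmx1a, an early determinant of the mDA lineage, was among those not called, at 110 CPM in mutant members against 100 CPM in other mutant nuclei and at 144 CPM in wt members against 109 CPM in other wt nuclei. Of 13 genes typical of substantia nigra dopamine neurons, 10 were lower in mutant and 9 in wt members (medians -1.07 and -0.83). Of 14 typical of the ventral tegmental area, 3 were lower in mutant members and 1 lower and 1 higher in wt members (medians -0.08 and -0.17). The gene lower in both was the tachykinin receptor gene Tacr3, at 25.4 CPM in mutant members against 42.5 CPM in other mutant nuclei and at 18.9 CPM in wt members against 93.9 CPM in other wt nuclei. Against the labelled cell type, mDA neurons, a Th tag was found without thinning in 21.62% of mutant and 26.96% of wt members, against 60.1% and 77.6% of the other nuclei.

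Of 6 genes of glutamate transmission 1 was higher and 1 lower in members of each library (medians 0.02 and 0.01). The lower one was Grin2c, an NMDA receptor subunit, at 5.54 CPM in mutant members against 46.1 CPM in other mutant nuclei and at 9.44 CPM in wt members against 24.4 CPM in other wt nuclei. The higher one was Slc17a6, the vesicular glutamate transporter. It was at 130 CPM in mutant members against 48.1 CPM in other mutant nuclei, a fold of 2.71 (2.45 to 2.99). It was at 102 CPM in wt members against 28.8 CPM in other wt nuclei, a fold of 3.53 (3.14 to 3.97). After thinning, 39.2% (31.3 to 47.5%) of mutant members had an Slc17a6 tag against 17.5% of other mutant nuclei, and 35.7% (26.9 to 45.1%) of wt members against 13.9% of other wt nuclei; without thinning those shares were 82.4% against 38.3% and 78.3% against 32.4%. The other vesicular glutamate transporters, Slc17a7 and Slc17a8, were at 0.874 CPM or less in members of either library. An Slc17a6 tag together with a tag of Th, Slc6a3 or Slc18a2 was seen in 14.2% (9.003 to 20.87%) of mutant and 23.5% (16.1 to 32.3%) of wt members, against 10.6% and 10.1% of the other nuclei. Slc17a6 with none of these dopamine tags was seen in 25% of mutant and 12.2% of wt members, against 6.97% and 3.81% of the other nuclei.

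Genes of GABA transmission did not mark the members in either library, since none of the 7 in the list was higher (median log2 ratios -0.06 in the mutant and -0.26 in the wt library). In the mutant library 2 of the 7 were lower, and in the wt library none was. Gad1, an enzyme that makes GABA, was at 89.2 CPM in mutant members against 93.5 CPM in other mutant nuclei and at 5.66 CPM in wt members against 10.9 CPM in other wt nuclei. Gad2, the other such enzyme, was at 54.2 CPM in mutant members against 89.99 CPM in other mutant nuclei and at 30.2 CPM in wt members against 46.1 CPM in other wt nuclei. Slc32a1, the vesicular GABA transporter, was at 6.996 CPM in mutant members and 0.539 CPM in wt members, and after thinning 0 of 115 wt members had a tag, which allows a share of up to 2.61% (3 counts of 115). Chat was at 0.583 CPM in mutant and 0.539 CPM in wt members, and no gene of the acetylcholine or the serotonin and noradrenaline list was called in either library.

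**Figure D3:**
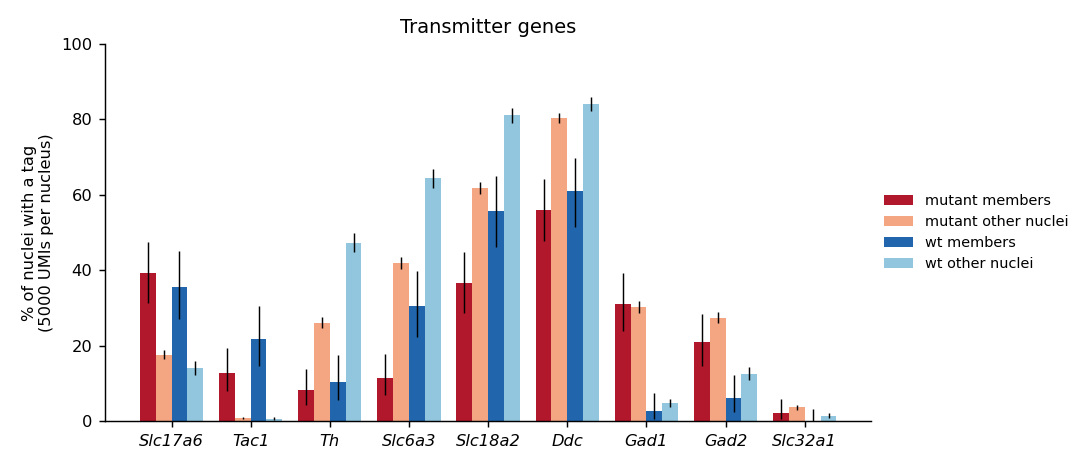
Share of nuclei with at least 1 tag of each transmitter gene after thinning every nucleus to 5000 UMIs, with exact binomial 95% intervals for counting error. Slc17a6 and Tac1 stand higher in members than in other nuclei of both libraries (39.2% against 17.5% and 35.7% against 13.9% for Slc17a6), and Th, Slc6a3, Slc18a2 and Ddc stand lower.

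Tags of free RNA can reach nuclei that do not make a transcript, and the nuclei that could show this were few. Nuclei with at least 2000 UMIs and at least 2% of them from 6 oligodendrocyte markers numbered 5 in the mutant library (median 4832 UMIs) and 7 in the wt library (median 3499 UMIs), and they and the members (medians 19772 and 22089 UMIs) were thinned to 2000 UMIs. Among the 6 score genes they showed a tag once, of Npsr1 in 1 of 5 mutant nuclei, and Slc17a6, Tac1 and Gad1 had none, against 23.0%, 9.46% and 17.6% of mutant members. With 5 and 7 nuclei a count of 0 allows shares of up to 60% and 42.9%, so this background was not measurable at this number of nuclei. Slc6a3 had a tag in 2 of 7 of them in the wt library, against 12.2% of wt members, and Onecut2 and Lepr in 3 and 2 of 5 in the mutant library, against 16.2% and 22.3% of mutant members. Lepr had none in 7 in the wt library, against 31.3% of wt members. With intervals as wide as 3.67 to 71.0% for 2 of 7 nuclei, no share in members could be set against this background.

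Some receptors, among them those of several neuropeptides and of leptin and serotonin, were higher in members, and nearly as many were lower. Of 34 measured G-protein-coupled and related receptors other than Npsr1, 7 were higher in mutant and 7 in wt members, and 6 and 5 were lower (medians 0.03 and 0.01). In the Xist-type nuclei defined below, the neurotensin receptor gene Ntsr1 was at 12.7 CPM in mutant members against 34.4 CPM in other mutant nuclei. In wt members of that class it was at 8.75 CPM, against 65.6 CPM in other wt nuclei. Htr2c, a serotonin receptor, was at 1487 CPM in mutant members against 310 CPM in other mutant nuclei and at 1434 CPM in wt members against 237 CPM in other wt nuclei. Lepr, the leptin receptor, was 4.52-fold higher (4.07 to 5.02) in mutant and 3.17-fold higher (2.89 to 3.46) in wt members. Hcrtr2, an orexin receptor, was 3.398-fold higher (3.03 to 3.80) in mutant and 5.08-fold higher (4.53 to 5.68) in wt members. The receptor genes Oprm1, of mu opioids, and Npy2r, of neuropeptide Y, were also higher in both libraries, with Npy2r at 9.04 CPM in mutant members against 0.834 CPM in other mutant nuclei and at 10.2 CPM in wt members against 0.472 CPM in other wt nuclei. Of the partners of Calcr in amylin binding, Ramp1 was at 6.12 CPM in mutant members against 1.51 CPM in other mutant nuclei and at 3.77 CPM in wt members against 2.78 CPM in other wt nuclei, called in the mutant library. The neuropeptide S gene itself, Nps, was at 0.291 CPM in mutant and 0.270 CPM in wt members, or 1 tag in each.

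The nitric oxide pathway did not follow Nos1 as a group: of 14 other genes measured, 1 was higher in either library and 2 were lower in mutant and 3 in wt members. The higher gene was Prkg2, a kinase activated by cyclic GMP, at 52.8 CPM in mutant members against 22.9 CPM in other mutant nuclei and at 66.1 CPM in wt members against 27.05 CPM in other wt nuclei. Nos1ap, an adaptor protein of Nos1, was 4.91 times lower (4.49 to 5.37) in mutant and 3.13 times lower (2.91 to 3.37) in wt members. Of the other glypicans, Gpc6 was 2.75 times lower in mutant and 2.90 times lower in wt members. Among 24 ion channel genes 2 were higher and 5 lower in mutant members, and 4 were higher and 4 lower in wt members. Trpc5, a cation channel, was 2.42-fold higher in mutant and 2.11-fold higher in wt members, and Trpc6 and Kcnd3 were 4.17 and 3.14 times lower in mutant and 2.74 and 2.29 times lower in wt members.

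No glial marker was called higher in members. The summed level of 9 oligodendrocyte markers was 190 CPM in mutant members against 227.97 CPM in other mutant nuclei, and 309 CPM in wt members against 281 CPM in other wt nuclei. That of 8 astrocyte markers was 148 CPM against 315 CPM in the mutant and 261 CPM against 302 CPM in the wt library, and that of 8 microglia markers 30.9 against 49.3 CPM and 33.4 against 59.3 CPM. The defining markers C1qa and C1qb of microglia and Gpr17 of oligodendrocyte precursors were at 0 in members of both libraries. No vascular marker was called higher in members either.

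The share of members differed between the libraries with the sex-linked tags of the nuclei. Nuclei were called Xist-type with at least 3 UMIs of Xist, the RNA of the inactive X chromosome, and at most 2 UMIs of the Y-linked genes Uty, Ddx3y, Eif2s3y and Kdm5d, and Y-type with at most 1 Xist UMI and at least 1 Y-linked UMI. Of Xist-type nuclei 4.61% were members in the mutant library (139 of 3013, 3.89 to 5.42%) and 4.66% in the wt library (55 of 1181, 3.53 to 6.02%). Of Y-type nuclei 1.05% were members in the mutant library (4 of 382, 0.286 to 2.66%) and 14.6% in the wt library (35 of 240, 10.4 to 19.7%). Y-type nuclei had medians of 9712 UMIs (mutant) and 15088.5 UMIs (wt), against 20005 and 24520 UMIs in Xist-type nuclei. What part depth plays in these shares was not tested. Nuclei with at least 3 UMIs of both kinds were members in 3 of 198 cases in the mutant library (1.52%) and 20 of 126 in the wt library (15.9%), with median depths of 40864 and 52834.5 UMIs. With 1 male mouse in each pool, Y-type nuclei of a library come from a single animal, so the sex, the animal and the genotype cannot be told apart. No doublet caller was run, and the part that joined nuclei play in the nuclei with both kinds of tag was not tested.

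**Figure D4:**
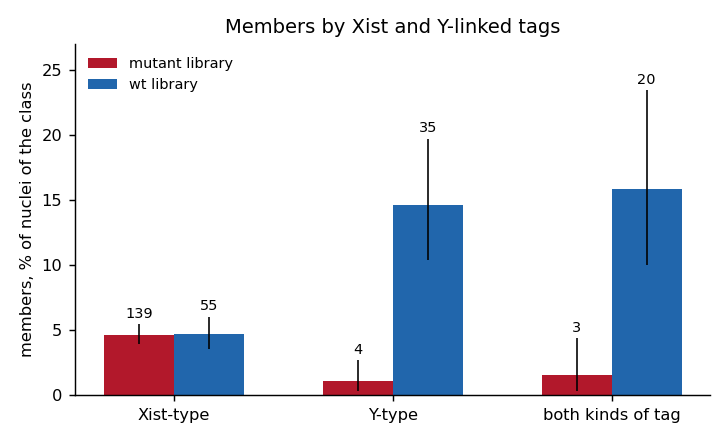
Members as a percentage of the nuclei of each class in the mutant and wt libraries, with exact binomial 95% intervals for counting error and the number of members above each bar. The shares are close in Xist-type nuclei (4.61% and 4.66%) and far apart in Y-type nuclei (1.05% and 14.6%).

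Between mutant and wt members, 45 of 9693 genes with at least 50 UMIs in members (0.464%) were higher in the mutant by 2-fold or more and 69 (0.712%) were lower by as much, with a median log2 ratio of 0.02. Which direction held more genes turned with the score limit: 72 were higher and 29 lower at the top 10% of nuclei, and 76 and 50 with the top 5% taken within each library. Of the 45 higher genes 34 (75.6%) were also at least 2-fold higher in mutant than in wt nuclei that were not members, and of the 69 lower genes 19 (27.5%) were lower there. Of all 9693 genes, 46 were higher and 34 lower by as much in those other nuclei. Among the Xist-type members, 139 mutant and 55 wt, all of the 15 highest genes stayed past 2-fold and 8 of the 14 named lowest genes did. Of the 6 that did not, Uty, Eif2s3y and Kdm5d are Y-linked genes whose tags the class itself limits. Among the 15 highest, Prdm6, Gm12688, Hoxc4, Spag6, Vax2os, Gata4, Pax3, Sim2 and Hoxc5 had no tag in wt members. A subset of wt members could add none, and 93.9% of mutant members were Xist-type. For these genes the stay past 2-fold was thus nearly set beforehand. Eed itself was at 37.6 CPM in mutant members against 19.7 CPM in wt members, a fold of 1.91 (1.42 to 2.58), and at 38.6 CPM against 21.5 CPM in the other nuclei. Tags from the 3' end need not lie in a deleted part of the gene, so the level of Eed is no check of the genotype.

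By the log2 ratio with 5 CPM added, which ranks these genes, Gad1 was highest, at 89.2 CPM in mutant members against 5.66 CPM in wt members, a fold of 15.8 (10.1 to 25.8). After thinning, 31.1% of mutant members (23.7 to 39.2%) and 2.61% of wt members (0.541 to 7.43%) had a Gad1 tag; without thinning the shares were 66.9% and 7.83%. The gene lies on chromosome 2 (70553072 to 70602014, plus strand) and overlaps the antisense Gad1os on the other strand. The part of Gad1os reads in its count was not tested. Gad2 was at 54.2 CPM against 30.2 CPM, a fold of 1.80 (1.41 to 2.29), and Slc6a5, the glycine transporter of glycinergic terminals, had tags in mutant members (14.3 CPM) and none in wt members, at least 17.7-fold higher when wt members are set to a floor of 3 counts. Of the 7 genes of GABA and glycine transmission 4 were at least 1.5-fold higher and none lower (median log2 ratio 0.75, against 0.01 over all genes at this minimum), where 2.61% of all genes passed that limit upward and 3.72% downward. Slc6a5, one of the 4, passed the minimum of 10 UMIs through mutant members alone. With no minimum the list's counts were the same, where 1.55% of all genes were higher and 2.17% lower. In the other nuclei 4 of the 7 were also higher and none lower (median 0.83).

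Of the 45 genes called higher (0.464% of 9693 tested) 17 were Hox genes or other listed developmental regulators. Those with no tag in wt members passed the minimum of 50 UMIs through mutant members alone, so this count says nothing of a direction. Onecut2, a homeobox factor, was at 112 CPM in mutant members against 10.8 CPM in wt members, a fold of 10.4 (7.46 to 14.7). Gata3, a zinc finger factor, was at 30.9 CPM in mutant members against 0.809 CPM in wt members, or 3 tags, a ratio of 38.2 (12.7 to 188). Hoxc4 and Hoxc5, neighbours on chromosome 15 of which the Hoxc5 gene model overlaps Hoxc10, were at 29.1 and 17.5 CPM in mutant members and had no tag in wt members, at least 36.0-fold and 21.6-fold higher. Prdm6, Gata4, Pax3 and Sim2 also had no tag in wt members and were at 31.2, 21.3, 19.8 and 18.7 CPM in mutant members. The cell cycle gene Ccnd2 was at 44.0 CPM against 5.39 CPM, a fold of 8.16 (5.10 to 13.7), and Spag6, of the motile cilium, was at 25.7 CPM against no tag. The others were noncoding or unnamed (Gm12688, Gm29683, 1700018A04Rik and Vax2os, the antisense partner of Vax2).

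The 250 bases before the RefSeq start of a gene (build GRCm38.p6, the same assembly as mm10) are shown for 2 of the highest genes, Gad1 and Gata3, and for Slc6a3, the lowered gene that drives Cre in this strain, with each CG dinucleotide in capitals, since PRC2 is known to sit at promoters rich in CG. The windows are chr2:70561879-70562128 on the plus strand, chr2:9878601-9878850 on the minus strand and chr13:73536497-73536746 on the plus strand, and the starts of Gad1 and Gata3 lie inside their longer GENCODE gene models.
Gad1: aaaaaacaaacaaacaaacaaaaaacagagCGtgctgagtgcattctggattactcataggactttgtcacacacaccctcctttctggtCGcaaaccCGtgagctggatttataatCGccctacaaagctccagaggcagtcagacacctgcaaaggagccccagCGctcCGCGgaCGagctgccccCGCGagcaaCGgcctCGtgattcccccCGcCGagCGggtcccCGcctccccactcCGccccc
Gata3: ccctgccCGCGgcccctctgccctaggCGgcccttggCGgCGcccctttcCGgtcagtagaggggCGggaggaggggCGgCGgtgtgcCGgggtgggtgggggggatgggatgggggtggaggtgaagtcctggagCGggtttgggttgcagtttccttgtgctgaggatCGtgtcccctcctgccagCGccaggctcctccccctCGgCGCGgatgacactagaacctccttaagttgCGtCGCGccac
Slc6a3: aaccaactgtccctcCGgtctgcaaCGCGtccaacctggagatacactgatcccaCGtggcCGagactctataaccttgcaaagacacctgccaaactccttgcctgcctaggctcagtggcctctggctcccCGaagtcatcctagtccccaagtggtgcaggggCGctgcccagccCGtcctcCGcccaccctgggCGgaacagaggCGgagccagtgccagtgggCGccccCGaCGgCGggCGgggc
They hold 17, 19 and 16 CG dinucleotides, which read alike on both strands. Of 13029 genes of the table with a single start in the RefSeq table, 34.8%, 28.4% and 37.8% hold at least as many, with a median of 11. Among the 15 highest genes 5 had such a single start and a median of 16, and among the 14 named lowest genes 8 had and their median was 11.5. The windows of genes that were higher and lower thus overlapped in this count.

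Hox genes, which pattern the body axis and the hindbrain, had tags in mutant members and none in wt members. Of the 31 Hox genes listed, 11 had at least 10 UMIs in members and passed that minimum through mutant members alone, so their number says nothing of a direction. The sum over all 31 was 125 CPM in mutant members, against 0 CPM in wt members, 446 CPM in other mutant nuclei and 0.260 CPM in other wt nuclei. After thinning, 31.1% of mutant members (46 of 148, 23.7 to 39.2%) had a tag of any Hox gene, against 57.1% of other mutant nuclei (55.4 to 58.7%), and 0 of 115 wt members had a tag, which allows a share of up to 2.61%. Without thinning the shares were 55.4% of mutant members and 70.3% of other mutant nuclei. Among nuclei with an Slc6a3 tag the share was 58.8% (10 of 17, 32.9 to 81.6%) in mutant members and 70.3% in other mutant nuclei, and among those without it 27.5% (36 of 131, 20.05 to 35.96%) in members and 47.6% in other mutant nuclei. What part the lower Slc6a3 level plays in the lower Hox share was not tested beyond these values. Of all 72 other homeobox and developmental regulators, with no minimum of UMIs, 28 were at least 1.5-fold higher and 2 lower in mutant than in wt members (median log2 ratio 0.36), where 1.55% of all 23481 genes were higher and 2.17% lower. Their sum was 1490 CPM in mutant members against 1154 CPM in wt members, and 2206 CPM against 1431 CPM in the other nuclei. Pax3 was at 19.8 CPM in mutant members and 83.8 CPM in other mutant nuclei, while Gata3, at 30.9 and 20.7 CPM, was not lower in members.

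**Figure D5:**
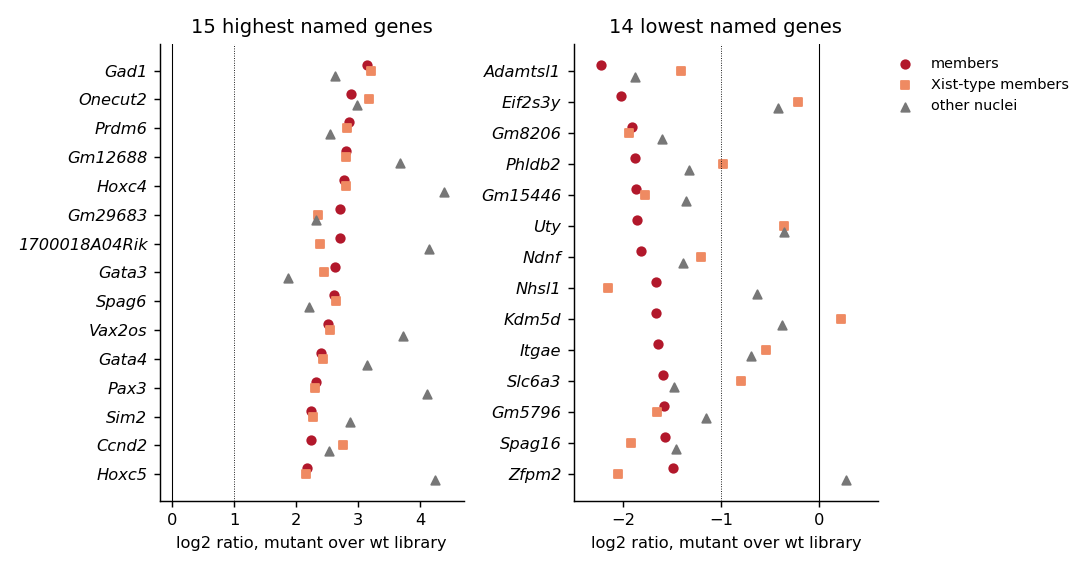
Log2 ratio (5 CPM added) of the mutant over the wt library for the 15 highest and 14 named lowest genes of the members, in all members (circles), in Xist-type members (squares) and in the other nuclei (triangles), with a dotted line at 2-fold. All 15 highest genes lie past 2-fold in Xist-type members too, and 6 of the 14 lowest shown (Eif2s3y, Phldb2, Uty, Kdm5d, Itgae and Slc6a3) do not. Those of the 15 with no tag in wt members could gain none in this subset, so for them this was nearly set beforehand.

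The lowest genes included 3 Y-linked genes, Uty, Eif2s3y and Kdm5d, beside 4 Y-type members in the mutant and 35 in the wt library. Uty was at 10.5 CPM in mutant members against 51.0 CPM in wt members and at 6.20 CPM against 9.33 CPM in Xist-type members. By the same log2 ratio Adamtsl1, a secreted matrix protein, was lowest, at 49.6 CPM in mutant members against 251 CPM in wt members, 5.06 times lower (4.293 to 5.995), and it was 2.83 times lower (2.29 to 3.51) in Xist-type members. Ndnf was at 1.17 CPM against 16.7 CPM, or 4 tags against 62. Slc6a3 was at 46.1 CPM in mutant members against 149 CPM in wt members, 3.23 times lower (2.70 to 3.88), and 1.82 times lower (1.44 to 2.30) in Xist-type members. Zfpm2, a cofactor of Gata factors, was at 28.0 CPM against 87.9 CPM in members, while in the other nuclei it was at 106 CPM in the mutant and 86.3 CPM in the wt library. With the top 10% of nuclei as members its log2 ratio of mutant over wt was 0.25, a turned direction. Spag16, of the motile cilium, was 3.30 times lower (2.64 to 4.15). Phldb2, Nhsl1 and Itgae and the predicted genes Gm8206, Gm15446 and Gm5796 were also among them, and Gm8206 overlaps the similar predicted gene Gm3468 on the same strand, so its counts are uncertain.

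Of the 15 genes of the dopamine list, which also holds the receptor gene Drd2, 5 were at least 1.5-fold lower in mutant than in wt members. None was higher, and 5 were lower in the other nuclei. Slc18a2 was at 120 CPM in mutant members against 305 CPM in wt members, 2.54 times lower (2.27 to 2.85), and Th was at 22.7 CPM against 38.3 CPM, 1.68 times lower (1.27 to 2.25). The others of the 5 were Slc6a3, Drd2 and Aldh1a1. In Xist-type members Th was at 21.4 CPM in the mutant against 23.3 CPM in the wt library, and Drd2 at 36.6 CPM against 42.6 CPM. In Xist-type members 3 of 13 genes of this list were lower, none of 14 mDA regulators was (5 of 14 in all members), and 3 of 12 nigral genes were (9 of 13 in all members). Over all genes of this subset 4.54% were higher and 4.62% lower by 1.5-fold or more. What part the sex-linked make-up of the members plays in these differences was not tested further. The summed level of astrocyte markers was 148 CPM in mutant members against 261 CPM in wt members, with 4 of 6 measured markers lower, and that of oligodendrocyte markers 190 CPM against 309 CPM, with 3 of 9 lower; their part in the lower genes was not tested.

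Between mutant and wt members, the log2 ratio of the 20 genes highest in members ran from -0.41 (Gm32647) to 0.37 (Zfp831). That of the 10 lowest ran from -2.23 (Adamtsl1) to 1.41 (Meis2). Slc17a6 was at 130 CPM in mutant members against 102 CPM in wt members, a fold of 1.28 (1.12 to 1.47), Htr2c at 1487 CPM against 1434 CPM, and Tac1 at 37.0 CPM against 51.0 CPM, 1.38 times lower (1.09 to 1.74). The 6 score genes chose the members, whose median score was 1.95 in the mutant and 2.38 in the wt library, so their ratios are a description. Of these 6 genes, Npsr1 alone passed 1.5-fold, at 161 CPM in mutant members against 248 CPM in wt members, 1.54 times lower (1.38 to 1.71). In Xist-type members it was 2.32 times lower (2.07 to 2.61) and Egflam 1.81 times lower (1.54 to 2.13). Of 10 measured PRC2 subunits, Eed was the only one past 1.5-fold, and of 18 subunits of PRC1 and H3K27 demethylases none was. Cdkn2a, a cell cycle inhibitor and a known PRC2 target, was at 11.95 CPM in mutant members against no tag in wt members, at least 14.8-fold higher, and at 15.5 CPM in other mutant nuclei.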

How the data were processed

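The deposited table holds raw UMI counts of 23481 genes in 5740 nuclei, and each nucleus was given its genotype by the start of its column name. Per the labels' protocols, nuclei were sorted and made into 10x Single Cell 3' v3 libraries; per the submitters' processing notes, Cell Ranger 3.1.0 and mm10 were used, with roles not given. Lanes are not kept apart in the table. The tools were scikit-learn 1.9.0, matplotlib 3.10.9, pandas 2.3.3, scipy 1.17.1 and numpy 2.4.6 under Python 3.11.15. Nuclei with at least 5000 UMIs were scored, and no doublet caller was run. Counts were summed per library and set of nuclei and divided by the sum to give CPM, and log2 ratios have 5 CPM added. Folds have none and carry exact binomial 95% intervals; where a group had 0 UMIs, a fold is against 3 counts over that group. Shares of nuclei with a tag were read after thinning to 5000 UMIs. The totals were 88201326 UMIs in the mutant and 46540890 in the wt library. Gene positions are from GENCODE M21, where 23058 symbols (98.2%) matched 1 gene, and promoters from RefSeq. The ratio, interval and call rule were tested on simulated data. The members, lists and comparisons were chosen with earlier results of these data known. Named were the 6 score genes, the 20 highest and 10 lowest genes of members in both libraries, the 15 highest and 15 lowest between mutant and wt members (1 of them is not reported here), Eed, the genes most like the score and up to 4 genes per list; other list genes named were chosen after their values were seen. The alternatives tried were other score limits and genes, depths, pseudocounts, gene minimums and scalings, and 4 subsets of nuclei chosen after seeing the data.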

Additional observations from a re-analysis of the deposited data

Results flagged for a closer look

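The relation of members to the sex-linked tags ran in opposite directions in the libraries, and the difference was not tested. Members made up 1.05% of Y-type and 4.61% of Xist-type nuclei in the mutant library, and 14.6% of Y-type and 4.66% of Xist-type nuclei in the wt library. The Y-linked gene Uty had a log2 ratio of members over other nuclei of -0.72 in the mutant and 0.78 in the wt library, and Eif2s3y of -0.87 and 0.73. Among the nuclei under 5000 UMIs, which the comparisons do not use, 18 of 290 in the mutant library (6.21%, 3.72 to 9.63%) and 5 of 186 in the wt library (2.69%, 0.878 to 6.16%) scored at or above the lowest member. Of these, 11 and 3 had tags of 2 or more score genes.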

How the results depend on the processing

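No paired analysis was possible because each genotype had 1 library. Members were 4.02% of the mutant and 7.25% of the wt nuclei. They were 1.79% and 4.16% at the top 2.5% by score, 8.89% and 12.5% at the top 10%, 5.003% and 4.981% with the top 5% taken within each library, 3.13% and 5.52% with mostly member neighbours, 2.84% in the mutant library with at least 4 score genes tagged, and 4.66% in the wt library among Xist-type nuclei. The order of the libraries thus held under the choices that left it free, except among Xist-type nuclei, where 4.61% and 4.66% were close. Genes higher and lower in mutant than in wt members numbered 45 and 69; the first count was 21 at the top 2.5%, 76 within each library, 85 with at least 20 UMIs per gene and 88 with at least 1, and the second 36 with 10 CPM added. Both moved to 72 and 29 at the top 10%, and to 85 and 140 with 1 CPM added. Against other nuclei, 1 CPM gave 476 higher and 840 lower genes in mutant and 451 and 516 in wt members. The lower genes were 517 and 385 at the top 2.5%, 79 and 101 at the top 10% (with 155 higher in the mutant library), and 484 and 335 with mostly member neighbours. In the wt library alone the lower genes were 277 within each library, 253 without the deepest nuclei, 251 with nuclei weighted equally, 321 among Xist-type nuclei and 285 without nuclei with both kinds of tag. The lower count is 167 in the wt library as reported. The causes were not tested.

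Of the 29 genes named between mutant and wt members, 23 to 29 stayed past 2-fold under the 22 alternatives, and of the 30 named against other nuclei 27 to 30. Signs turned for Zfpm2 (log2 ratio 0.25) at the top 10% and Kdm5d (0.23) among Xist-type nuclei. Genes near 5 CPM and shares of the 115 wt members rest on few tags.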
